A study of Homo sapiens with 16 samples.

Results

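CpG-poor promoters of protein-coding genes were examined among the regions whose H3K27ac differed after OGT inhibition in LX-2 cells. H3K27ac is an acetyl mark on histone H3 that is found at active promoters and enhancers. LX-2 is a human cell line derived from hepatic stellate cells that behaves like myofibroblasts, and OGT is the enzyme that attaches O-GlcNAc to nuclear and cytoplasmic proteins. Control cells received vehicle (DMSO) and OGTi cells received OSMI-1, which inhibits OGT, at 50 µM for 24 h, with 4 H3K27ac ChIP-seq libraries in each arm and all of them from the same line. The 8 other samples of the 16, which are input and column purified chromatin, entered no comparison.

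A region was counted as a CpG-poor promoter region when any of its bases lay within 2500 bp of the 5′ end of a protein-coding gene and its CpG observed/expected ratio was below 0.6. This ratio compares the number of CG dinucleotides with the number that the C and G content of the same sequence would give. Of the 7130 listed regions, 484 met the rule, of which 215 had lost and 269 had gained H3K27ac under OGTi. The regions closest to the limit on the inside were a gained region at MOK (ratio 0.5997) and one at MRPL30 (0.5994), and on the outside a lost region at SEMA5A, which rounds to the limit itself, and lost ones at PLEKHG4 (0.6005) and HSPG2 (0.6006). The lists carry positions only. Hence neither the H3K27ac level nor the size of its change can be given for any region or library, and every test below takes the region, not the culture, as its unit.

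Promoters fall broadly into CpG-rich ones, which overlap CpG islands and serve many broadly expressed genes, and CpG-poor ones, which more often serve genes that are restricted to certain tissues or strongly induced and which are methylated in many cells that do not use them. A TATA box, the sequence bound by the TATA-binding protein shortly before the TSS, is more typical of the CpG-poor kind. In myofibroblastic hepatic stellate cells the genes of type I collagen and of smooth muscle contraction are well known cases. Serum response factor (SRF) drives many contractile genes through the CArG box, TEAD factors with their coactivator YAP drive genes that respond to mechanical tension, and ATF4 with a C/EBP partner drives genes induced by amino acid shortage.

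Upstream sequence of a few members is shown first, to place elements that are counted further on, of which only the TEAD motif differed between lost and gained regions after adjustment over the motifs searched. All sequences are from hg38, run 5′ to 3′ on the strand of the gene and end 1 base before its annotated 5′ end, and none of them touches an annotated exon. In the 180 bases before the TSS of 2 lost contractile genes, capitals mark the CArG box that matched the SRF consensus. They encode cardiac alpha-actin (ACTC1, chr15:34795590-34795769, minus strand) and calponin 2 (CNN2, chr19:1026406-1026585, plus strand).
ACTC1: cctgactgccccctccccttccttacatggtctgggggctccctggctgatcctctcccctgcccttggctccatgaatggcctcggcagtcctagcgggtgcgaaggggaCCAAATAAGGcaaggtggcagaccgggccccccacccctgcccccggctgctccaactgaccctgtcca
CNN2: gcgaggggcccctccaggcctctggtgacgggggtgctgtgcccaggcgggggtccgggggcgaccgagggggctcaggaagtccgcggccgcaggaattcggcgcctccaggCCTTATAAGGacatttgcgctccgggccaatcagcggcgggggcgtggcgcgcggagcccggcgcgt
The CArG boxes began 69 and 67 bases before the TSS of ACTC1 and CNN2, and each lay within the lost region.

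The next 4 upstream sequences carry, in capitals, a TEAD match, searched on either strand as CATTCC preceded by A or G and followed by A or T. OLFML3 (chr1:113979211-113979390, plus strand), which encodes a secreted olfactomedin-like protein, CAVIN2 (chr2:191847089-191847268, minus strand), a caveolar coat protein, and LMOD1 (chr1:201946549-201946728, minus strand), the smooth muscle leiomodin, lost H3K27ac over the TSS. PPP2R5B (chr11:64917373-64917552, plus strand), a regulatory subunit of protein phosphatase 2A, gained it.
OLFML3: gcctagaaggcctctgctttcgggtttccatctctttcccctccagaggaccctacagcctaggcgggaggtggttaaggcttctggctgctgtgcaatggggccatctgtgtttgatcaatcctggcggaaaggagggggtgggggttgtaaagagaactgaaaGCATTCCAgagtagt
CAVIN2: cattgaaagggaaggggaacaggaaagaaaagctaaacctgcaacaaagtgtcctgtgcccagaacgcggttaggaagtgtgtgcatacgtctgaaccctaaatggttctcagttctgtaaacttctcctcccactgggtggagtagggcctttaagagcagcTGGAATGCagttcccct
LMOD1: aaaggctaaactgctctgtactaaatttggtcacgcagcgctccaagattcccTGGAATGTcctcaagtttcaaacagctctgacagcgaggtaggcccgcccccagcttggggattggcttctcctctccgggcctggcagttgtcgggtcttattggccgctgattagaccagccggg
PPP2R5B: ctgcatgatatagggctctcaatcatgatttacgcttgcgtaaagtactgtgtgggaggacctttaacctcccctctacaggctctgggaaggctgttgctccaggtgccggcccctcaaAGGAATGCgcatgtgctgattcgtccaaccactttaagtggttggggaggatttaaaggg
The matches began 15, 17, 127 and 60 bases before the TSS in the order printed. The sites of CAVIN2, LMOD1 and PPP2R5B were on the strand opposite to the gene. These examples do not show how such sites divide between lost and gained genes. Gained regions over the TSS also held TEAD matches centred 68, 87, 153 and 178 bases upstream at PVR, WARS1, IFIT3 and PIK3C2A. Among lost genes, WNT5A held such a match centred 88 bases upstream. Over the regions that hold the TSS, the TEAD difference missed the threshold (Fisher's exact test, adjusted p = 0.199).

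Among gained regions, SLC7A11 (chr4:138242350-138242529, minus strand), the cystine transporter subunit xCT, and NCOA7 (chr6:125780981-125781160, plus strand), a nuclear receptor coactivator, held the composite ATF4-C/EBP sequence TGATGCAA, given in capitals.
SLC7A11: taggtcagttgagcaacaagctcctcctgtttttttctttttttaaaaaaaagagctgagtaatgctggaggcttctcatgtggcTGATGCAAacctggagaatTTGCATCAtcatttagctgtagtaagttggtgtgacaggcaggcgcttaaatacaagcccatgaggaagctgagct
NCOA7: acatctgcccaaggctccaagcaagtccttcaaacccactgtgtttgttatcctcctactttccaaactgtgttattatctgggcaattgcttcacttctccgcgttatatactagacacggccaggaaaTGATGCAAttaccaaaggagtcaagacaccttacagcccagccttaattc
SLC7A11 held 2 such sequences in opposite orientation, the nearer beginning 76 bases before the TSS, and NCOA7 held 1, beginning 50 bases before it.

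TATA boxes (TATAAA, in capitals) are shown for 4 genes in the 60 bases before the TSS, to place them relative to the changed regions. COL1A2 (chr7:94394835-94394894, plus strand) encodes a chain of type I collagen, EDN1 (chr6:12290301-12290360, plus strand) encodes endothelin-1 and JUNB (chr19:12791426-12791485, plus strand) an AP-1 subunit, and all 3 had lost regions. ANXA1 (chr9:73151805-73151864, plus strand), which encodes annexin A1, had a gained region.
COL1A2: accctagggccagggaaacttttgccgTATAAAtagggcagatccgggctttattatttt
EDN1: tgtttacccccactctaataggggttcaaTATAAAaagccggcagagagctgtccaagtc
JUNB: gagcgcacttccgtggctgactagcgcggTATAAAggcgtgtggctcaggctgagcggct
ANXA1: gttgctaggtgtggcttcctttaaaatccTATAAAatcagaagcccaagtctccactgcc
The TATA box was inside the changed region at EDN1 and ANXA1. At COL1A2 and JUNB it lay outside the lost CpG-poor regions, which were entirely upstream of it.

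The direction of the H3K27ac change was compared between CpG-poor and CpG-rich promoters. CpG-poor promoter regions were lost in 44.4% of cases (215 of 484, Wilson 95% interval 40.1% to 48.9%), near the 49.2% of all 7130 listed regions. CpG-rich promoter regions of protein-coding genes were lost in 17.7% of cases (183 of 1036, interval 15.5% to 20.1%). The odds of loss were thus 3.725 times higher in CpG-poor promoters (95% interval 2.93 to 4.74, two-sided Fisher's exact test, p = 3.98e-27). The odds ratio ranged from 3.15 to 4.89 under all 8 other settings tried, among them a CpG limit of 0.5 or 0.7 and, added after the values were seen, the restriction to regions that hold the TSS. Of the regions near the TSS of non-coding genes alone, 50.4% of 699 were lost, and of those away from every TSS 56.1% of 4911. The TSS here is the annotated 5′ end of the gene, so that these regions can lie near the starts of other transcripts.

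Within the CpG-poor promoter regions, the share of loss was lowest just under the limit. Regions with a ratio below 0.2 were lost in 58.6% of cases (65 of 111, interval 49.3% to 67.3%) and those from 0.2 to 0.3 in 49.6% (64 of 129). From 0.3 to 0.4 the share was 41.0% (32 of 78) and from 0.4 to 0.5 it was 52.9% (36 of 68). Their intervals overlapped each other. From 0.5 to 0.6 it was 18.4% (18 of 98, interval 11.95% to 27.2%), close to the share of CpG-rich promoters.

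**Figure D1:**
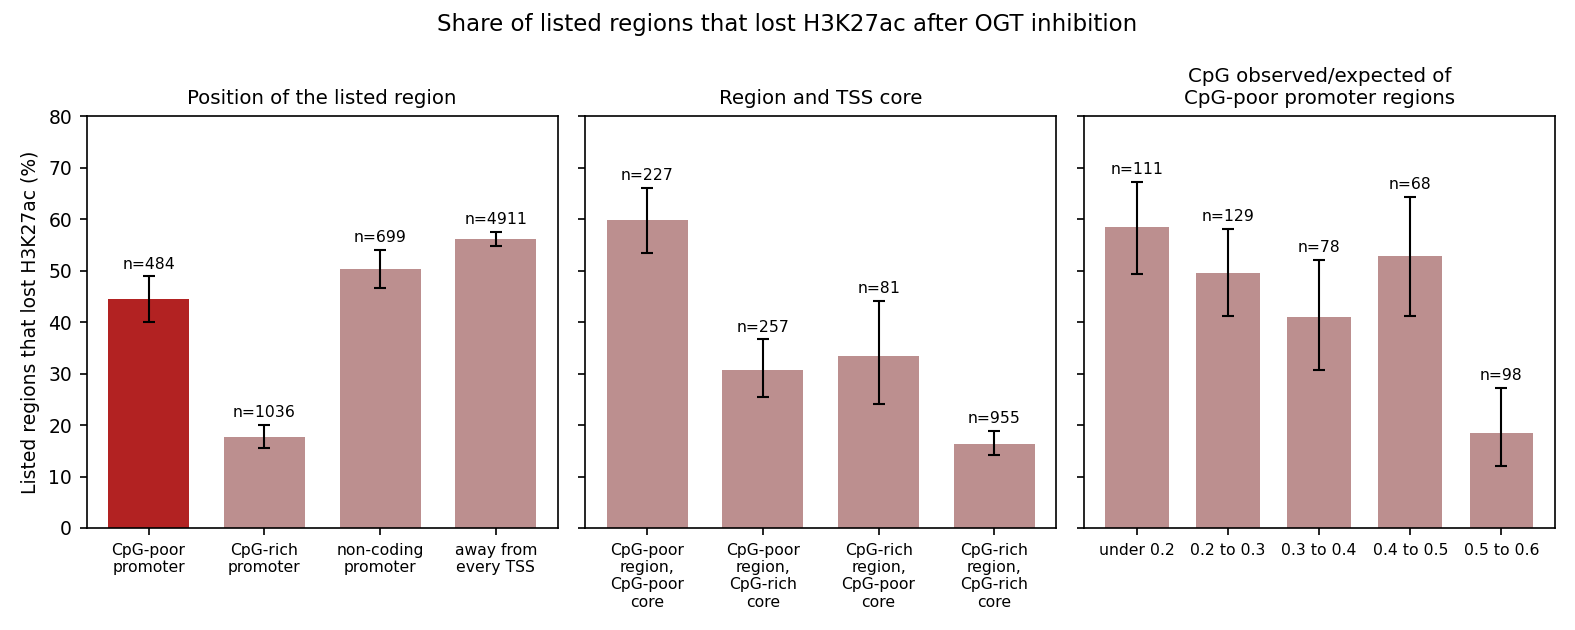
Percent of listed regions that lost H3K27ac (bars from 0, with Wilson 95% intervals that cover counting error only and n above them) by position of the region, by CpG class of the region and of its TSS core, and by CpG observed/expected ratio within CpG-poor promoter regions. CpG-poor promoters (44.4%) stand far above CpG-rich promoters (17.7%), and regions that are CpG-poor both in themselves and around the TSS reach 59.9%.

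It was next asked whether these regions are in fact promoters with few CpGs, or flanks of CpG-rich start sites. The TSS was inside 84 of 215 lost (39.1%) and 104 of 269 gained regions (38.7%, for an odds ratio of 1.017, 95% interval 0.704 to 1.47, Fisher's exact p = 1), so that most regions lay beside the TSS. This comparison depended on the CpG limit. The odds ratio was 1.655 with a limit of 0.5 (exact p = 0.0274) and 0.536 with a limit of 0.7 (exact p = 6.08e-05). Of the remaining regions, 66 lost and 61 gained ones lay upstream of the nearest TSS, and 65 lost and 104 gained ones downstream. Lost regions covered the position 2000 bp upstream in 24.2% of cases and gained regions in 17.5%, while 2500 bp downstream these shares were 23.3% and 29.4%. Nearer the TSS the order varied, with 38.1% and 41.6% at 500 bp downstream but 32.6% and 24.5% at 1500 bp downstream.

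**Figure D2:**
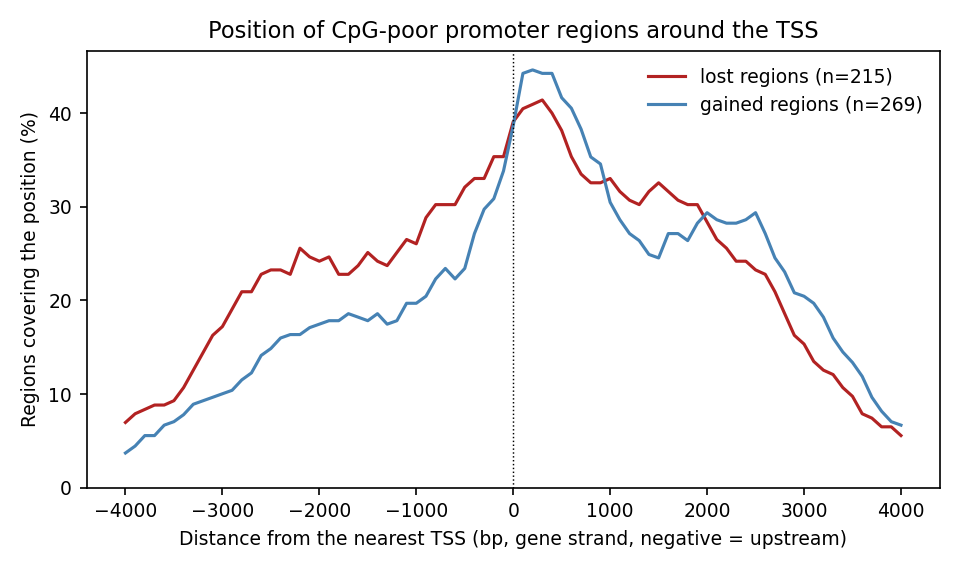
Percent of lost (red, n = 215) and gained (blue, n = 269) CpG-poor promoter regions that cover each position from 4000 bp upstream to 4000 bp downstream of the nearest protein-coding TSS, on the strand of the gene. The lines meet at the TSS (39.1% and 38.7%), and the lost line runs higher upstream. Downstream, the gained line runs higher up to 900 bp and from 2000 bp on, and the lost line from 1000 to 1900 bp.

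The sequence around the TSS was compared as well. The TSS core, 500 bp on each side of the nearest TSS, had a ratio of 0.6 or more for 79 of 215 lost regions (36.7%) and for 178 of 269 gained regions (66.2%; odds ratio 0.297, 95% interval 0.204 to 0.432, Fisher's exact p = 1.13e-10). The core is in part the same sequence as regions that hold or touch it, whose ratio entered the choice of the regions, so that this test is not independent of the rule. Among regions that do not overlap the core, a setting added after the values were seen, a CpG-rich core lay next to 43 of 105 lost (41.0%) but 105 of 134 gained ones (78.4%), for an odds ratio of 0.192 (95% interval 0.109 to 0.337, exact p = 4.68e-09). The label of a CpG-poor promoter therefore applied to region and TSS core alike in 136 lost and 91 gained regions, whereas 257 of the 484 regions neighboured or overlapped a CpG-rich start site. Regions with a CpG-poor core were lost in 59.9% of 227 cases (interval 53.4% to 66.1%) and those with a CpG-rich core in 30.7% of 257 cases (25.4% to 36.6%). For comparison, 39.9% of 19933 protein-coding TSSs had a CpG-poor core.

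**Figure D3:**
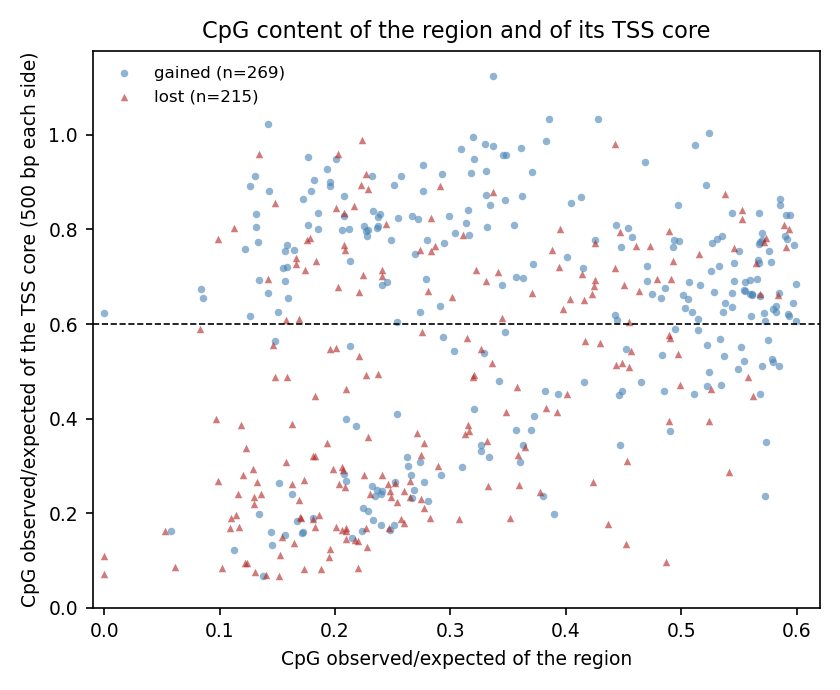
CpG observed/expected ratio of each CpG-poor promoter region (horizontal axis) and of its TSS core (vertical axis), with lost regions as red triangles and gained regions as blue circles; the dashed line marks a core ratio of 0.6. Gained regions gather above the line (178 of 269) and lost regions below it (136 of 215).

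Lost regions were richer in G and C, with a mean GC content of 54.3% ± 8.20 (SD, 215 regions) against 49.5% ± 8.37 (SD, 269 regions), and had a lower median CpG ratio, at 0.249 (quartiles 0.182 and 0.399) against 0.345 (0.233 and 0.522). These values are described without a test, because the ratio entered the choice of the regions. More lost than gained regions were wider than 2000 bp, the pooled median (43.7% against 34.6%, odds ratio 1.47, Fisher's exact p = 0.0484). The authors divided peaks into bins of typically 2000 bp, so that this limit reflects the binning and not the width of acetylated domains. With abutting regions joined, 55.7% of lost and 44.8% of gained regions exceeded their pooled median (odds ratio 1.545, Fisher's exact p = 0.0309). Without joining, the odds ratio was 1.022 (exact p = 1) among regions with a CpG-poor core. The TSS of another gene on the opposite strand within 1000 bp upstream was less frequent at lost (8.37%) than at gained regions (15.6%, for an odds ratio of 0.494, Fisher's exact p = 0.0181), but missed the threshold with 1 region per gene (odds ratio 0.676, p = 0.256).

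TATAAA between 40 and 20 bases before the TSS was present at 11 of 191 genes nearest to lost regions (5.76%) and at 4 of 249 genes nearest to gained regions (1.61%, an odds ratio of 3.743, Fisher's exact p = 0.0305), with 3.03% over 19933 protein-coding TSSs. Among the lost genes were COL1A2, EDN1, JUNB, KISS1, CLU, DEPP1, KRT3, MUC22, SLC12A3 and ZC3H12A. The gained ones were ANXA1, GBE1, MT2A and TNFSF9. This difference missed the threshold under most other settings. With RefSeq gene starts it was 7.69% of 143 against 4.57% of 197 genes (odds ratio 1.741, exact p = 0.249), and among regions that hold the TSS 2.38% against 1.92%.

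CpG-poor promoters moved with the regions around them. Of the lost promoter regions with a listed region away from protein-coding TSSs within 50 kb, the nearest such region was lost in 91 of 98 cases (92.9%). For gained promoter regions it was lost in 9 of 122 cases (7.38%; odds ratio 163, 95% interval 58.5 to 455, Fisher's exact p = 4.64e-42). Wide peaks were divided into bins before the test, so that a neighbour can be part of the same acetylated domain. With neighbours more than 5 kb away, a setting added after the values were seen, the shares were 90.0% and 8.18% (odds ratio 101). The nearest region had the direction of the promoter in 92.7% of 220 cases at CpG-poor promoters and in 78.0% of 236 cases at CpG-rich promoters. Their odds ratios, 163 and 19.5, differed (Breslow-Day test with Tarone's correction, n = 220 and n = 236, p = 0.00193). The classes were compared only within 50 kb and with bins unjoined. A TSS was inside 188 of 484 CpG-poor but 847 of 1036 CpG-rich regions. Whether distance to the neighbour or binning accounts for the difference was not tested. COL1A1 was among the genes with a nearest region of the other direction. There, the lost region next to the TSS had a gained region as its nearest neighbour and the lost region further upstream a lost one.

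To describe the sequences, 22 transcription factor motifs were searched on both strands, and a region was counted when it held at least 1 match. After Benjamini-Hochberg adjustment over the motifs, 2 differed between lost and gained CpG-poor promoter regions. The TEAD motif occurred in 88 of 215 lost (40.9%) and 71 of 269 gained regions (26.4%), an odds ratio of 1.932 (95% interval 1.32 to 2.84, Fisher's exact test, adjusted p = 0.00997), compared with 35.1% of all listed regions and 27.1% of windows of 2000 bp around CpG-poor protein-coding TSSs. The MEF2 motif, bound by MEF2 factors of muscle and other cells and rich in A and T, was found in 14.4% of lost against 27.1% of gained regions, with an odds ratio of 0.452 (Fisher's exact test, adjusted p = 0.00997). It was found in 25.5% of the same windows and in 23.7% of all listed regions. The TEAD difference kept its direction but missed the threshold where abutting regions were joined (odds ratio 1.601, exact test, adjusted p = 0.0922), with 1 region per gene (1.854, adjusted p = 0.0827) and among regions that hold the TSS (2.045, adjusted p = 0.199). The TEAD motif passed in 8 of 11 other settings and the MEF2 motif in 5. The MEF2 difference missed the threshold with a TSS window of 1000 bp (odds ratio 0.720, exact test, adjusted p = 0.783), with joined regions (0.561, adjusted p = 0.073), with 1 region per gene (0.632, adjusted p = 0.303) and with a CpG-poor core (0.648, adjusted p = 0.698). It fell to an odds ratio of 0.622 (adjusted p = 0.251, n = 484) once width and GC content were in a logistic model, and among regions that hold the TSS its odds ratio was 1.212 (Fisher's exact test, adjusted p = 1).

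The other motifs did not pass the threshold in this comparison, although some did under other settings. The SRF motif occurred in 14.4% of the lost against 7.43% of the gained regions, an odds ratio of 2.098 (exact test, adjusted p = 0.0689), with 9.58% in the genomic windows. It passed at a CpG limit of 0.7 (exact test, adjusted p = 0.0249) and with all transcript starts (adjusted p = 0.00359). The TWIST E-box passed under 5 other settings and the NF-kB motif under 2, both more frequent in lost regions. The SP/KLF motif had calls in both directions, with an odds ratio of 2.264 at a limit of 0.5 (exact test, adjusted p = 0.00352) and of 0.438 in the model with width and GC content (adjusted p = 0.00898). The ATF4-C/EBP sequence occurred in 4.19% of the lost against 10.8% of the gained regions (odds ratio 0.362, exact test, adjusted p = 0.0546), and it passed under 4 other settings, for example in the central 1000 bp of each region (odds ratio 0.185, adjusted p = 0.00312). The AP-1 motif, TGACTCA or TGAGTCA, occurred in 42.3% of the lost against 40.1% of the gained regions (odds ratio 1.094, 95% interval 0.760 to 1.58, exact test, adjusted p = 0.832). It was found in 26.6% of the genomic windows and in 41.1% of all listed regions. Among genes whose CpG-poor region contains the TSS, TEAD matches occurred in the region for 34 of 88 lost and 31 of 119 gained genes, SRF matches for 17 and 6, ATF4-C/EBP matches for 4 and 14 and AP-1 matches for 47 and 46. Over the regions that hold the TSS none of the 22 motifs passed (exact test, adjusted p = 0.0725 for SRF, 0.199 for TEAD and 0.518 for ATF4-C/EBP).

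The odds ratios were also compared with those of CpG-rich promoters for the 17 motifs that were frequent enough, and 3 differed between these promoter classes (Breslow-Day test with Tarone's correction, Benjamini-Hochberg adjusted). The ETS motif CCGGAAGT was found in 0 of 183 lost and 174 of 853 gained CpG-rich regions, and in 5 of 215 lost and 18 of 269 gained CpG-poor regions (n = 1036 and n = 484, adjusted p = 0.00199). The count of 0 allows a share of up to 1.64% in lost CpG-rich regions. The MYC and USF type E-box CACGTG had an odds ratio of 1.007 in CpG-poor and 0.429 in CpG-rich promoters (n = 484 and n = 1036, adjusted p = 0.0353). MEF2 had 0.452 and 1.202 (n = 484 and n = 1036, adjusted p = 0.0353). The ETS and E-box sequences contain CG, whose frequency set the promoter classes, so that their comparisons are not independent of the rule. For TEAD (1.932 and 1.281) the adjusted p was 0.522 (n = 484 and n = 1036), so that a difference from CpG-rich promoters was not shown.

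**Figure D4:**
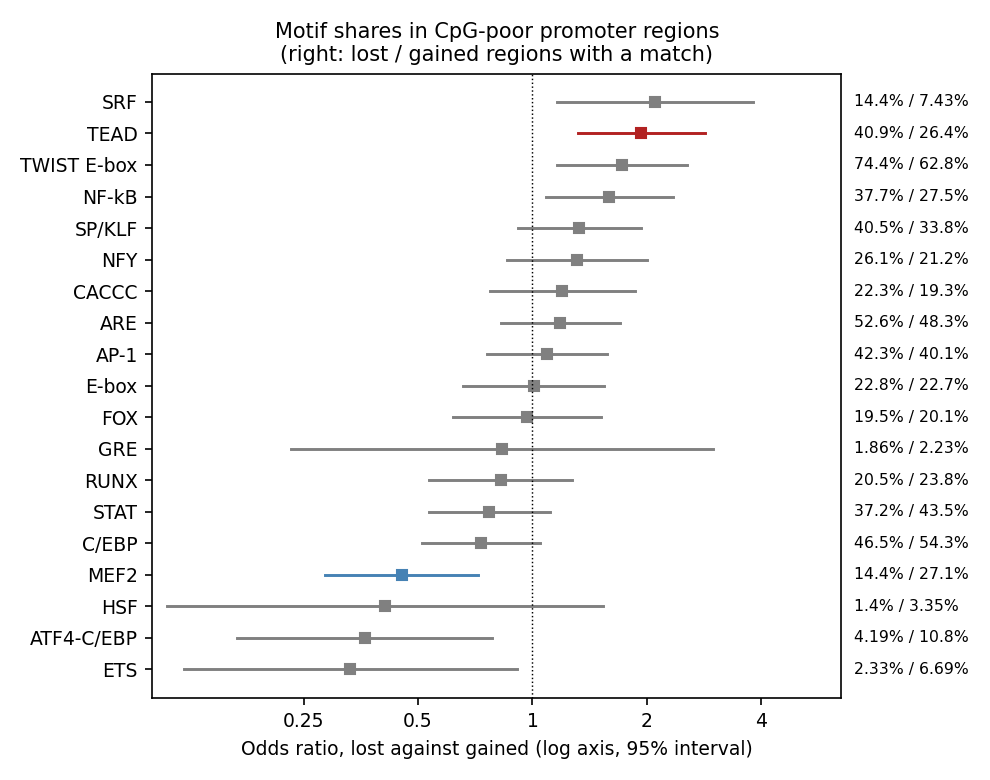
Odds ratio of finding a motif in lost against gained CpG-poor promoter regions (log axis, square with 95% interval) for the motifs found in at least 10 regions, with the percent of lost and of gained regions that hold a match on the right. TEAD (red, higher in lost) and MEF2 (blue, higher in gained) passed the adjusted threshold, and the motifs in grey did not.

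CpG-poor regions belonged to 499 of 20020 protein-coding genes, 215 with lost regions (1.07% of all genes) and 284 with gained regions (1.42%), and no gene had both. Among genes with a CpG-rich region as well, all 25 with a lost and all 61 with a gained CpG-poor region had the CpG-rich region change in the same direction. Over all genes, 1.07% had a lost and 5.29% a gained CpG-rich region. Regions near the same TSS can be bins of 1 wide peak. Gene lists are described by counts beside the 1.07% lost and 1.42% gained at CpG-poor regions. No test was made, since the lists were chosen with earlier results of these data known. Of the 215 lost genes, 9 lie on the mitochondrial genome, which held 3 lost CpG-poor regions and carries no histones. Without them 206 lost genes remained, and without the mitochondrial regions the share of loss was 44.1% in CpG-poor and 17.1% in CpG-rich promoters (odds ratio 3.82).

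Genes of the contractile apparatus and actin cytoskeleton had 12 lost and 0 gained members of 55 (21.8%). Among them were ACTC1, CALD1, CNN2, LMOD1, MYL6, MYL9, PDLIM7, TAGLN, TAGLN2 and TNNT2. The lost region of MYL9, a myosin regulatory light chain gene, had a CpG ratio of 0.443 and covered the TSS. That of ACTC1 (chr15:34795566-34795820) was 255 bp wide, from 231 bp before to 23 bp after the TSS, and held the CArG box shown above. At LMOD1 (chr1:201946135-201947366, ratio 0.383) the lost region ran from 818 bp upstream to 413 bp downstream. CNN2, PDLIM7, TAGLN and TAGLN2 each had 2 abutting lost regions. Loss at TAGLN2, which encodes transgelin 2, extended from 840 bp before to 2668 bp after its TSS.

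Of 37 collagen genes, 4 had lost and 0 gained CpG-poor regions (10.8%). At COL1A1, 2 abutting lost regions with CpG ratios of 0.158 and 0.148 lay upstream of the TSS. At COL1A2 the lost region (chr7:94391433-94393966, ratio 0.227) lay from 929 to 3462 bp upstream. The lost CpG-poor promoter regions of both type I collagen genes thus lay upstream of the TSS. The TSS core of COL1A2 had a ratio of 0.492, below the limit. COL7A1, the chain of anchoring fibrils, had a lost region over the TSS and an abutting one upstream, and COL5A3, a type V collagen chain, one of 671 bp beginning 1594 bp downstream of it.

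In the other matrix lists most genes had no CpG-poor region in either direction. Matrix glycoproteins and proteoglycans had 5 lost members of 57 (8.77%), namely the laminin chain LAMB2, tenascin C (TNC), fibulin 2 (FBLN2), perlecan (HSPG2) and vitronectin (VTN), and 1 gained member, the laminin chain LAMC1. LAMB2 and TNC had lost regions over the TSS. Enzymes of matrix crosslinking and remodelling had 4 lost members of 45 (8.89%) and 1 gained. The lost ones were the lysyl oxidases LOXL1 and LOXL4, the procollagen C-proteinase enhancer PCOLCE and the metalloproteinase inhibitor TIMP3, and the gained one was the metalloproteinase MMP11, with a region of 433 bp over the TSS. At LOXL1, loss covered chr15:73921591-73926290 in 2 abutting regions, from 4398 bp before to 301 bp after the TSS.

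Receptors and adhesion molecules were divided. PDGFRB, the platelet-derived growth factor receptor of stellate cells and other mesenchymal cells, had a lost region of 3352 bp (chr5:150153103-150156454, ratio 0.207) from 582 bp before to 2769 bp after a TSS with a CpG-poor core (0.292). FGFR1 was the other lost member of the 77 growth factor genes (2.60%). The 5 gained members (6.49%) were the ligands FGF2, GDF15, PDGFC and VEGFC and the BMP antagonist GREM1. The regions of FGF2, VEGFC and PDGFC began 1536, 1544 and 1308 bp downstream of a TSS with a CpG-rich core. Chemokines, cytokines and their receptors had 4 lost members of 66, CCL2, IL11, IL7R and the chemokine receptor ACKR3, and 2 gained ones, the chemokine CXCL8 and the pentraxin PTX3. Of 49 adhesion genes, the integrin chains ITGA5 and ITGB1, L1CAM and THY1 were lost, and CD44, the cadherin CDH4 and paxillin (PXN) gained.

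Of 33 YAP and TEAD target genes, 1 had a lost CpG-poor region (CAVIN2) and 6 had a gained one (18.2%), namely ANKRD1, ASAP1, AXL, FSTL1, MYOF and YAP1 itself. At CpG-rich regions, 4 of them were lost (12.1%) and 3 gained (9.09%), against 1.07% and 5.29% of all genes. At CAVIN2 the lost region (chr2:191844956-191848023, ratio 0.332) covered the TSS and the TEAD match shown above. AXL, a receptor tyrosine kinase, gained H3K27ac in 2 abutting regions from 777 bp before to 3043 bp after the TSS, and MYOF, the membrane repair protein myoferlin, from 371 bp before to 2182 bp after it. The gained regions of ANKRD1, a cardiac ankyrin repeat protein, and of YAP1 lay downstream of the TSS, beginning at 671 and 1463 bp. The TSS core was CpG-poor at ANKRD1 (0.189) and CpG-rich at YAP1 (0.943).

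Stress response genes were represented by gains. The ATF4 and amino acid response list had 0 lost and 7 gained members of 44 (15.9%), DDIT3, DDIT4, GDF15, SHMT2, SLC1A5, SLC7A11 and WARS1. At SLC7A11 the gained region (chr4:138241111-138243205, ratio 0.327) reached from 856 bp before to 1238 bp after the TSS and held both ATF4-C/EBP sequences shown above. GDF15, a stress-induced cytokine, had a gained region of 3340 bp over its TSS (chr19:18372435-18375774, ratio 0.218), and SHMT2, the mitochondrial serine hydroxymethyltransferase, one of 2688 bp. The NRF2 antioxidant list had 0 lost and 6 gained members of 29 (20.7%). They were the ferritin chains FTH1 and FTL, the quinone reductase NQO1, the thioredoxin reductase TXNRD1, the transporter ABCC2 and SLC7A11, which is on both lists. NQO1 and FTL each gained 2 abutting regions that included the TSS. In heat shock and ER folding genes, 1 of 35 was gained, HSPA5, the ER chaperone BiP. At CpG-rich regions, 13 genes of the ATF4 list (29.55%), 3 of the NRF2 list (10.3%) and 5 of the heat shock list (14.3%) were gained. None of these lists had a lost CpG-rich region, and 5.29% of all genes had a gained one.

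Counts were small for immediate early genes and transcription factors. JUNB was lost (3.23%) and DUSP5 and MYC were gained (6.45%) among 31 AP-1 and immediate early genes. At CpG-rich regions, 2 genes of this list were lost (6.45%) and 6 gained (19.35%), against 1.07% and 5.29% of all genes. Among 62 mesenchymal transcription factors SNAI1 was lost and NR2F2 gained (1.61% each). FAS was lost (3.23%) and BAX and GADD45A were gained (6.45%) among 31 cell-cycle inhibitors and p53 targets. No retinoid or lipid droplet gene of 36 had a CpG-poor region in either list, nor had any of the 24 hepatocyte, 18 macrophage and leukocyte or 16 endothelial genes. With 1.07% of all genes lost and 1.42% gained, lists this short would hold few such genes, so their absence carries little information. The list of keratin genes of epithelial and biliary cells had 5 lost members of 23 (21.7%), KRT7, KRT8, KRT17, KRT18 and KRT80, and 0 gained ones. KRT3, a keratin gene that is not on that list, had a lost region as well. The 2 abutting lost regions upstream of KRT18 included the one that placed KRT8 among the lost genes, since the genes are neighbours. These lists give no expression levels, so that the identity of the cells could not be checked against marker genes.

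**Figure D5:**
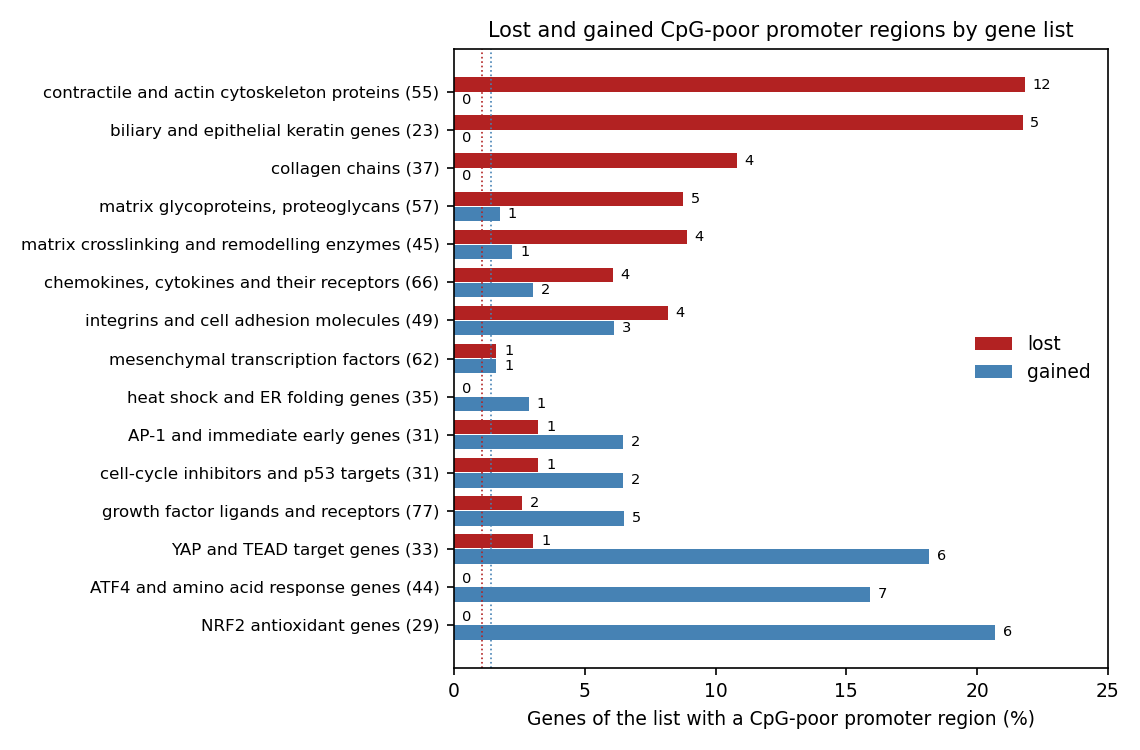
Percent of the genes of each list (number of genes in parentheses) with a lost (red) or gained (blue) CpG-poor promoter region, with the number of genes at the end of each bar; dotted lines mark the shares over all protein-coding genes, 1.07% lost and 1.42% gained. Contractile (12 lost), keratin (5 lost) and collagen genes (4 lost) had no gained member, and ATF4 (7 gained) and NRF2 genes (6 gained) no lost member.

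Large gene families defined by name contributed little. Of 508 zinc finger genes named ZNF, 3 were lost and 1 was gained at CpG-poor regions, against 2 and 32 at CpG-rich ones, and of 82 ribosomal protein genes 1 changed in each direction. Of 69 replication-dependent histone genes, none had a CpG-poor region in the lists and 27 had a lost CpG-rich region. Solute carriers had 3 lost and 6 gained members of 373, complex I and mitochondrial ribosome genes 0 and 3 of 125, voltage-gated and TRP channels 1 and 0 of 159, and olfactory and taste receptors 2 and 1 of 427.

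The 5 gene lists that the study took from earlier work differed from each other. The fibrogenic stellate cell list had 17 lost and 6 gained genes of 162, and the liver fibrosis matrisome list 10 and 2 of 71. The list of heart, kidney and lung fibrosis genes had 9 and 3 of 147. Myofibroblast identity genes had 13 lost and 14 gained members of 127, and the liver fibrosis list 1 lost, COL1A1, and 6 gained members of 61. ANXA1, CD44, FLRT2, LARP6, SH3BGRL3 and SSR3 made up the gained ones.

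Several CpG-poor regions could mark 1 gene, with up to 3 among 24 lost genes and 2 among 24 gained genes that had more than 1. Conversely, 18 lost and 37 gained regions were near the TSSs of 2 or more genes. At the endothelin gene EDN1, 2 abutting lost regions ran from 1816 bp before to 2060 bp after the TSS, and at MT2A, a metallothionein, 2 abutting gained regions ran from 329 bp before to 3286 bp after it. At SPRY4, a Sprouty inhibitor of growth factor signalling, gain extended from 1427 bp before to 3840 bp after the TSS.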

How the data were processed

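H3K27ac ChIP-seq libraries of control and OGTi-treated LX-2 cells were aligned to hg38 with Chromap by the authors, who called peaks in each library against input with MACS2 (version 2.1.1.20160309 in the submitters' notes), removed duplicates and blacklisted regions, divided peaks into bins and tested the 4 control and 4 OGTi libraries with MAnorm2. The 2 deposited lists give the chromosome, start and end of regions as other positional values without score, fold change or p-value. Their names state an adjusted p of 0.15 as threshold, and the methods text a stricter one. Read depth is unknown, and intervals cover counting error only.

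Starts were converted to count from 1. Genes came from GENCODE release 44 (an earlier one served the study), the TSS being the 5′ end of the gene, and sequence from hg38. RefSeq promoter sequences on GRCh38.p14 matched 340 of 440 genes nearest to member regions. Lost and gained regions were compared by two-sided Fisher's exact tests (scipy 1.17.1) with Wald 95% intervals for odds ratios, motifs with Benjamini-Hochberg adjustment over 22 consensus sequences, and promoter classes by Breslow-Day tests (statsmodels 0.14.6). Matches of the C/EBP consensus can overlap those of ATF4-C/EBP. The motif test was checked on simulated sequences. Members and gene lists were chosen with earlier results of these data known. Genes were named by list, distance to the TSS, number of regions and motif match. The other list members, the comparison of neighbours with CpG-rich promoters and the gene groups of the closing section were added after their values were seen. No columns were left unused. A few items are not reported here.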

Additional observations from a re-analysis of the deposited data

How the results depend on the processing

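Of 111 alternative odds ratios, 76 kept their direction and their side of the threshold, 22 missed the threshold, 7 newly passed it and 6 changed direction. The comparison with CpG-rich promoters, the CpG-rich TSS core and the direction of the nearest region kept direction and side of the threshold under every alternative run. The share of regions that hold the TSS had an odds ratio of 1.655 at a CpG limit of 0.5, 0.5356 at 0.7, 0.8424 with joined regions and 0.8562 with 1 region per gene. The odds ratio for wide regions missed the threshold at a limit of 0.5 (1.382), with 1 region per gene (1.47), with the TSS held (1.836) and with a CpG-poor core (1.022). That for a divergent TSS missed it with a TSS window of 1000 bp (0.5274), joined regions (0.5733), 1 region per gene (0.6758) and the TSS held (0.6767). That for the TATA box missed it at a limit of 0.5 (3.844), with a window of 1000 bp (1.688), 1 region per gene (3.29), all transcript starts (1.916), the TSS held (1.244) and RefSeq starts (1.741). Chosen after seeing the data were the RefSeq starts, leaving out the mitochondrial genome, neighbours more than 5 kb away, regions outside the TSS core, and the TSS-held setting for the TATA box, divergent starts, the TSS core and the comparison with CpG-rich promoters. The number of motifs more frequent in lost regions, 1 as reported, became 3 and 4 at limits of 0.5 and 0.7, 5 with all transcript starts, 2 in the central 1000 bp, 2 without the mitochondrial genome, and 0 with joined regions, 1 region per gene or the TSS held. The number more frequent in gained regions, also 1, became 3 at a limit of 0.7, 3 in the central 1000 bp, 2 with all transcript starts, 2 in the model with width and GC content (ETS and SP/KLF), and 0 with a window of 1000 bp, 1 region per gene, the TSS held or a CpG-poor core. With joined regions it stayed at 1, but ATF4-C/EBP was called and MEF2 was not. MEF2 turned to an odds ratio of 1.212 with the TSS held, and AP-1 to 0.8356 at a limit of 0.5 and 0.9356 with joined regions. The cause of these shifts was not tested, and the restricted settings also held fewer regions. No paired analysis was possible because no value per library is given beside the positions, so that no library could be left out either. The depth of the libraries limits which regions could enter the lists, to an extent that is unknown here.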

Other observations

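Some groups of genes stood out only when the member genes were read through, so that the following counts describe groups put together after their values were seen and carry no test. Over all genes, 1.07% had a lost and 1.42% a gained CpG-poor region. Pregnancy-specific glycoproteins, a family of near-identical genes on chromosome 19 to which short reads are hard to assign, had 5 lost and 0 gained members of 10 at CpG-poor regions, PSG1, PSG2, PSG3, PSG6 and PSG7. The endothelins EDN1 and EDN2 were lost among 5 endothelin and endothelin receptor genes. WNT5A and FZD2 were lost among 29 WNT ligands and Frizzled receptors, and WNT5A and FZD7 also had lost CpG-rich regions.

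On the gained side were 4 of 22 sterol synthesis enzymes, ACAT2, FDPS, HMGCS1 and MSMO1. A further 6 had gained CpG-rich regions, among them CYP51A1, LBR, MVD and SQLE, and none had a lost region of either kind. Of 36 interferon and innate sensing genes, 8 were gained at CpG-poor regions, among them IFIT3, TLR4 and its partner LY96, and 1 was lost, STING1. Both REV-ERB receptors of the circadian clock, NR1D1 and NR1D2, and 3 of 7 Sprouty and SPRED inhibitors, SPRY4, SPRED1 and SPRED3, were gained. The remaining groups were 10 dual-specificity MAP kinase phosphatases and 11 metallothioneins. Each had 1 gained and 0 lost members at CpG-poor regions, the gained ones being DUSP5 and MT2A.

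The mitochondrial genome held 10 regions of the lost list and 0 of the gained list. Of these, 3 were CpG-poor and near 9 of its 13 protein-coding genes.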
